A study of Mus musculus with 12 samples.

Results

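The p53 pathway was followed through 32 genes: p53 itself (Trp53), the genes that hold it in check, and targets that carry out its effects on the cell cycle, cell death, metabolism and DNA repair. The rule takes genes by name and uses no measured value, but the list was chosen with earlier results of these data known. All 32 were found by symbol among 55367 distinct gene symbols in each expression table. The cells were G1E-ER4, an established mouse line of erythroid progenitors without a working Gata1 gene of their own. They carry GATA1 joined to the hormone-binding part of the estrogen receptor, and estradiol therefore sets off their maturation toward red cells. RNA was sequenced from 12 libraries, 3 labelled as biological replicates in each of 4 groups, and every group, control included, had received 100 nM β-estradiol. Control cells received nothing further. The others were given 50 µM DTPA, a chelator used to lower cellular zinc, 50 µM DFO, an iron chelator, or 0.2 mM SA, used to inhibit the heme synthesis enzyme ALAD. All were harvested at 24 h. The protocol text gives DFO as the agent of the ALAD group, whereas titles and treatment tags give SA, which was followed here. The cells are 1 line in culture, so the replicates carry no variation between animals, and the p-values measure the spread between these libraries.

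p53 is a transcription factor that stays scarce in unstressed cells because MDM2, a ubiquitin ligase and itself a p53 target, marks it for destruction. DNA damage, ribosomal stress and other insults release it, and it then switches on genes that stop the cell cycle, repair DNA, limit oxidative damage or start apoptosis. It represses cell-cycle genes mainly indirectly, through p21 (Cdkn1a) and the DREAM complex. Much of its control acts on the protein, which RNA levels do not show.

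Values are TPM, a transcript level corrected for gene length and scaled to 1 total in every library. Changes were tested with limma on log2(TPM + 1), a scale that understates changes of genes near 1 TPM. "Rose" and "fell" mean a Benjamini-Hochberg adjusted p below 0.05 over the 11917 genes that reached 1 TPM in at least 3 libraries. Of the 32 genes, 25 were tested. Each of these was at or above 1.39 TPM in all 12 libraries, so none entered through the group in which it was high. The other 7 were under the filter. Fas (a death receptor), Perp (a membrane protein of apoptosis), Gdf15 (a secreted stress cytokine) and Cd82 (a tetraspanin) were listed at 0 in all 12 libraries. Plk2, a stress-responsive kinase, was above 0 in 3 libraries and reached 0.131 TPM, its relative Plk3 ranged from 0.283 to 0.872 TPM, and Dram1, a lysosomal autophagy protein, reached 0.138 TPM.

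The libraries held between 19860127 and 24329335 reads, as recovered from the TPM steps. All 8 erythroid markers (among them Klf1 and Hba-a1) were above 1 TPM in at least 1 library. Their summed level was 34491 to 37832 TPM in control, 40376 to 42030 with DTPA, 25522 to 27550 with DFO and 20442 to 21026 with SA. The sum of 9 megakaryocyte markers was 8.23 to 9.34 TPM in control and 36.5 to 45.8 TPM with DTPA. Within that list Itgb3 and Gp1ba made up most of the DTPA sum, and Gp1bb and Ppbp were listed at 0 throughout. It was 10.3 to 10.9 TPM with DFO and 8.27 to 9.87 TPM with SA. The 10 mast and myeloid markers summed to 2.11 to 3.01 TPM in control, 4.87 to 5.02 with DTPA, 2.18 to 3.63 with DFO and 2.98 to 4.04 with SA, with Mpo and Lyz2 at 0 in every library. Of these 10, 8 were under 1 TPM in all libraries. Hdc averaged 0.244 TPM in control and 2.59 TPM with DTPA, and Cd68 averaged 2.12 and 2 TPM. The 8 lymphoid markers summed to at most 2.04 TPM, in DTPA, and the 5 stromal markers to at most 0.0427 TPM. The part of these differences in the results that follow was not tested, and in bulk RNA fewer cells of a type cannot be told apart from less RNA per cell.

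With DTPA, 12 of the 25 tested genes rose (background: 23.5% of all tested genes) and 8 fell (background: 42.1%). Their median log2 difference from control was 0.180, against -0.113 for all tested genes. With DFO, 6 rose (background: 8.39%) and 0 fell (background: 2.28%), with a median of 0.062 against 0.045. For falls with DFO the count was also 0 at an unadjusted limma p below 0.05, and 0 in voom, the count-based form of limma, run on recovered reads. With SA, 2 rose (background: 15.4%) and 7 fell (background: 6.75%), with a median of -0.035 against 0.047. All 3 comparisons use the same control libraries, so they are not independent of each other. Median-of-ratios scaling, which sets the typical gene equal between libraries, shifted the median of all genes with DTPA from -0.113 to 0.002. The counts then became 15 higher and 8 lower with DTPA, against 32.2% and 32.4% of all tested genes under that scaling. They were 3 and 0 with DFO (all genes: 3.55% and 5.42%) and 2 and 12 with SA (9.43% and 13.6%). Mdm4, Aen and Tigar were the additions with DTPA, and Gadd45a, Gtse1, Aen, Ei24 and Polk the additional falls with SA, while Zmat3, Phlda3 and Xpc lost their DFO calls.

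**Figure D1:**
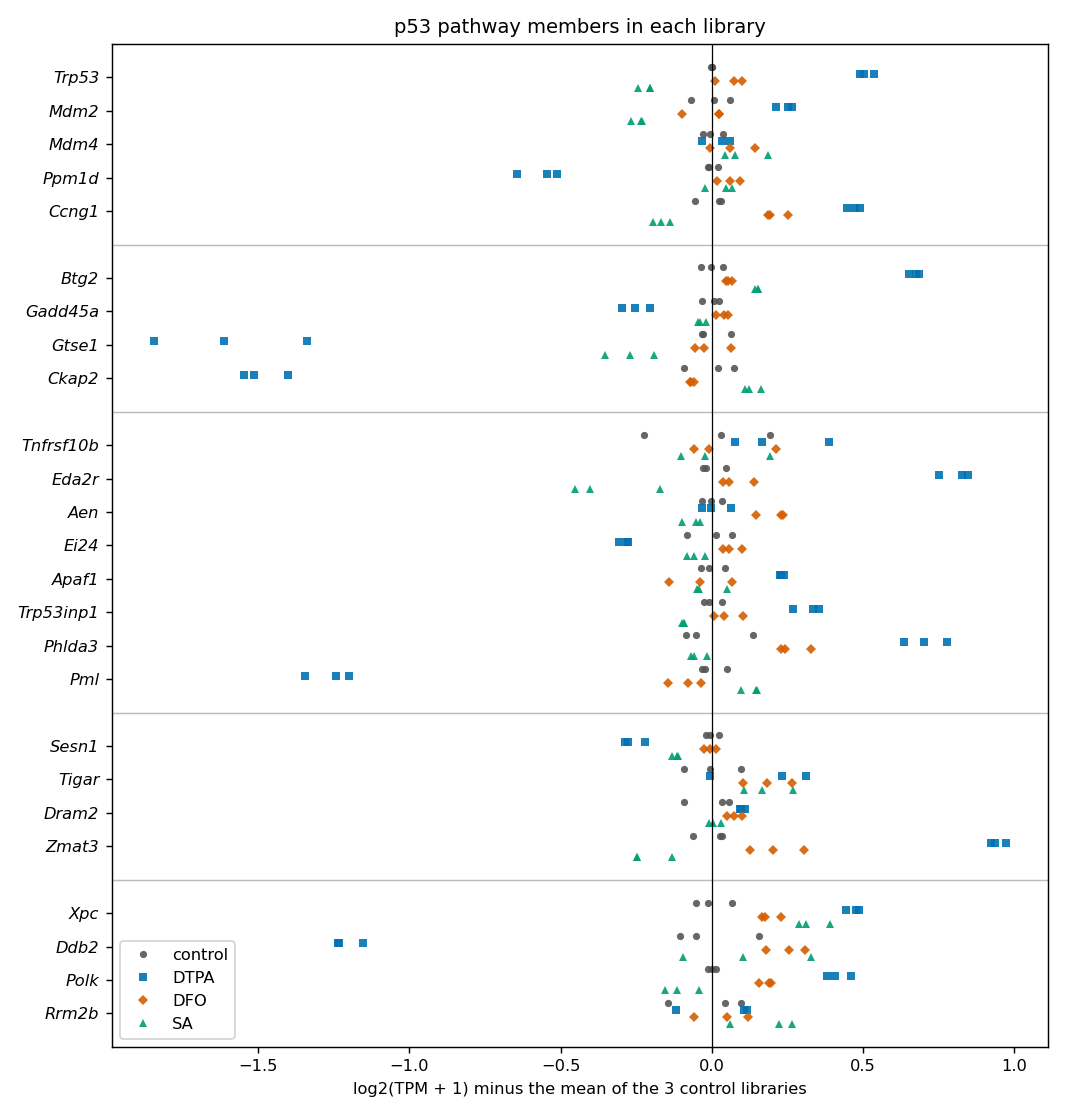
Log2(TPM + 1) of each library minus the mean of the 3 control libraries (x axis) for the 25 tested genes (rows, grouped by role), with 1 point per library, shaped and coloured by group. The DTPA points stand farthest from 0 in most rows, with group differences from 0.94 for Zmat3 to -1.60 for Gtse1, while DFO and SA points lie nearer to the control points.

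In the core circuit, p53 and 2 of its direct partners rose with DTPA and the same 3 genes fell with SA. Trp53, on chromosome 11 (69580359 to 69591873, plus strand, mm10), stood at 122.1, 122.2 and 121.8 TPM in control and at 173.3, 177.4 and 171.7 TPM with DTPA. It was 123, 128.6 and 130.8 TPM with DFO and 102.8, 105.9 and 105.9 TPM with SA. The DTPA libraries lay above, and the SA libraries below, every other library, and the DFO libraries were just above control. The mean was 1.43-fold control with DTPA (log2 0.51, SE 0.0249, limma adjusted p = 5.25e-09) and 0.86 of control with SA (log2 -0.22, adjusted p = 0.000111). With DFO the log2 difference was 0.06 (95% interval 0.01 to 0.12, adjusted p = 0.146). Trp53-ps, a processed pseudogene of Trp53, averaged 8.31 TPM in control and 13.6 TPM with DTPA, and how reads were divided between the near-identical copies is uncertain.

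Mdm2, the ligase that degrades p53, was at 74.4, 68 and 71.8 TPM in control and at 82.9, 85.9 and 85.1 TPM with DTPA. It was 72.6, 66.6 and 72.6 TPM with DFO and 60.5, 59.1 and 60.7 TPM with SA. The DTPA libraries did not overlap control from above, nor the SA libraries from below, while DFO and control overlapped. The log2 differences were 0.24 (adjusted p = 0.000187) with DTPA and -0.24 (adjusted p = 0.00114) with SA, both from limma. Ccng1 (cyclin G1), a target that recruits a phosphatase to MDM2, averaged 345.1 ± 11.2 TPM (SD, n = 3) in control. It rose to 478.3 ± 6.76 TPM with DTPA and 399.4 ± 10.4 TPM with DFO, and fell with SA (log2 -0.17). Ccng1 was the only one of the 5 core genes that rose with DFO (log2 0.21, limma adjusted p = 0.000822).

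The other 2 inhibitors in the circuit did not rise with DTPA. Mdm4, a relative of MDM2 that binds p53 and blocks its activity, was at 61.3, 59.5 and 58.5 TPM in control, 58.4, 61.2 and 62.3 TPM with DTPA, 66.1, 59.5 and 62.4 TPM with DFO and 63.1, 61.6 and 68.1 TPM with SA. The DTPA and control libraries overlapped (log2 0.02, 95% interval -0.08 to 0.12, limma adjusted p = 0.719). Mdm4 did pass with DTPA after median-of-ratios scaling (log2 0.151, adjusted p = 0.0049) and in voom (adjusted p = 0.00936). Ppm1d, the WIP1 phosphatase that removes activating phosphates from p53 and its kinases, fell with DTPA from 49.9 ± 0.607 to 33.4 ± 1.64 TPM (SD, n = 3), a log2 change of -0.57. Its mean was 52 TPM with DFO and 51 TPM with SA, and neither difference passed the test.

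**Figure D2:**
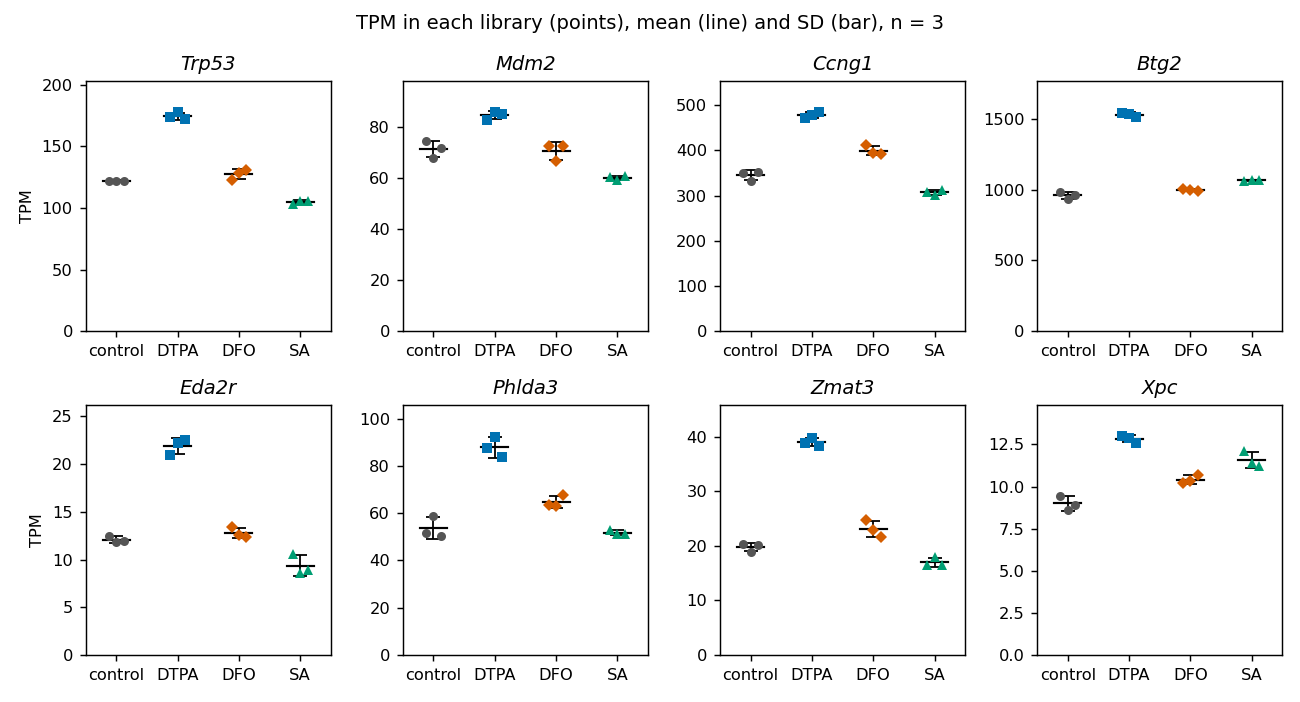
TPM in every library (points), group mean (line) and SD (bar, n = 3) for 8 genes that rose with DTPA, each with its own linear axis from 0. The DTPA libraries lie above all others in each panel; with SA, Trp53, Mdm2, Ccng1, Eda2r and Zmat3 lie below control and Btg2 and Xpc above it.

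Promoter sequence is shown for 3 genes that rose with DTPA and 2 that fell, because genes that carry a p53 decamer moved in both directions. The decamer is the unit that p53 response elements are built from, and it was searched by its consensus on both strands in RefSeq windows (GRCm38.p6) from 250 bases before to 50 bases after each listed start, of which a gene can have several. Of the 32 genes, 25 had a window (34 windows in all), and 12 of these (48%) held the decamer in at least 1, against 9.55% of the 27025 symbols with a window. Among the further p53 targets described later, 3 of 23 (13%) held it. In Polk and Sesn1 it was only in the window of another start, 23392 and 77504 bases inside the gene. Counting windows within 500 bases of the gene's 5′ end alone, 10 of 23 genes (43.5%) held it. Of the 12, 4 rose with DTPA (Trp53, Mdm2, Ccng1 and Polk), 7 fell and 1 did not pass. Of the 13 without it, 7 were tested, of which 5 rose and 2 did not pass. Over all tested genes 23.5% rose and 42.1% fell with DTPA. Whether the decamer goes with a direction was not tested. The matched decamer is in capitals, with up to 25 bases on either side, 5′ to 3′ on the gene's strand. The stretches are chr11:69580259-69580318 (plus) for Trp53, chr10:117710910-117710969 (minus) for Mdm2, chr11:40755437-40755496 (minus) for Ccng1, chr11:85311097-85311156 (plus) for Ppm1d and chr9:58249896-58249955 (minus) for Pml.
Trp53: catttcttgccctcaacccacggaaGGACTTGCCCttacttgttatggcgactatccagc
Mdm2: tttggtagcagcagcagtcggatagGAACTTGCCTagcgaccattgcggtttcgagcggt
Ccng1: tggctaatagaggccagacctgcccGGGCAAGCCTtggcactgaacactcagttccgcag
Ppm1d: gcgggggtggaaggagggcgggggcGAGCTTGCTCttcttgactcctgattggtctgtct
Pml: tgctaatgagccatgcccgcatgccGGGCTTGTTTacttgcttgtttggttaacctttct
A match in these windows is a description and not evidence of binding. The first base of the match lies 75 bases before the RefSeq start in Trp53, 186 in Mdm2, 185 in Ccng1, 132 in Ppm1d and 144 in Pml.

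Among the growth arrest and cell-cycle genes, 1 rose and 3 of the 4 tested fell with DTPA (25% and 75%, against 23.5% and 42.1% of all tested genes). Btg2, an antiproliferative gene that promotes removal of mRNA poly(A) tails, was by far the most abundant of the 25 tested genes. It was at 985.7, 936.5 and 959 TPM in control, 1545, 1535 and 1511 TPM with DTPA, 1005, 996.5 and 992.3 TPM with DFO and 1060, 1068 and 1068 TPM with SA. The SA libraries lay above control and below DTPA without overlap. The DTPA mean was 1.59-fold control (log2 0.67, SE 0.019, limma adjusted p = 4.62e-11), and the SA mean was 1.11-fold (log2 0.15, adjusted p = 0.000214). Btg2 and Xpc were the 2 genes of the pathway that rose with SA.

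Gtse1, a protein of the G2 and S phases that moves p53 out of the nucleus, had the largest fall with DTPA among the 25 genes. It was at 51.7, 51.6 and 55.2 TPM in control, 16.6, 20.3 and 14 TPM with DTPA, 55.2, 51.8 and 50.8 TPM with DFO and 46.1, 43.6 and 41.1 TPM with SA. The DTPA mean was 0.321 of control (log2 -1.60, limma adjusted p = 4.47e-08). The SA libraries lay below control without overlap, but the difference missed the threshold (log2 -0.27, adjusted p = 0.0743). That difference passed in voom (adjusted p = 0.000795), under median-of-ratios scaling (0.0342), in the fit of only the 6 libraries compared (0.0118) and without DTPA replicate 2 or 3 (0.0134 and 0.0177).

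Ckap2, a spindle-associated protein, was at 34.6, 31.9 and 35.9 TPM in control and 11.3, 11 and 12.3 TPM with DTPA. It was 32.5, 32.7 and 32.4 TPM with DFO and 38.3, 37.2 and 36.9 TPM with SA. With DTPA the mean was 0.338 of control (log2 -1.49, limma adjusted p = 1.63e-10), and all 3 libraries lay far below the rest. Gadd45a, a stress sensor that binds PCNA and inhibits CDK1, fell with DTPA from 223 ± 4.39 to 187.2 ± 6.03 TPM (SD, n = 3; log2 -0.25). Its exons overlap those of E230016M11Rik on the opposite strand over 19.1% of their length, and whether strand was used in counting is not given in the sources used here. Since E230016M11Rik averaged 6.82 TPM against 214.1 TPM for Gadd45a over all libraries, Gadd45a's level was the higher by far.

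**Figure D3:**
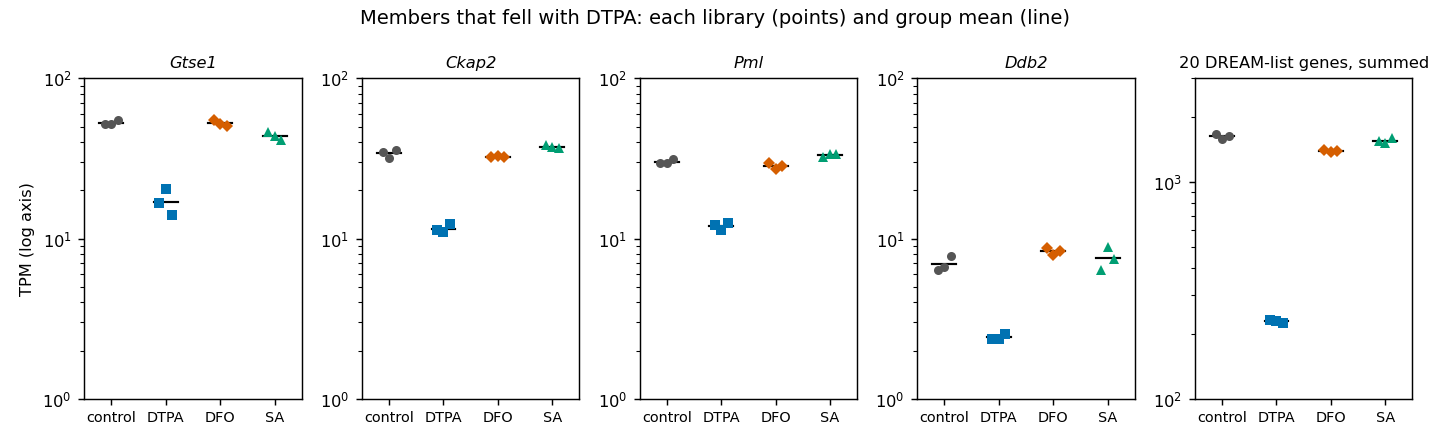
TPM in every library (points, n = 3 per group) with the group mean (line), on a log axis that has its own range in the last panel, for Gtse1, Ckap2, Pml and Ddb2, and for the summed level of the 20 genes that are repressed through p21 and DREAM or encode parts of that system. The DTPA libraries lie below all others in each panel; the sum was 1578 to 1671 TPM in control and 224.8 to 231 TPM with DTPA.

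Of the 8 tested genes of death receptors and apoptosis, 4 rose with DTPA, 2 fell and 2 did not pass (50% higher and 25% lower, against 23.5% and 42.1% of all tested genes). Eda2r, a receptor of the TNF receptor superfamily on the X chromosome, was at 12.5, 11.8 and 11.9 TPM in control, 21, 22.2 and 22.5 TPM with DTPA, 13.4, 12.6 and 12.4 TPM with DFO and 10.6, 8.54 and 8.88 TPM with SA. The DTPA and SA libraries lay on opposite sides of control without overlap. The log2 differences were 0.81 with DTPA (limma adjusted p = 7.86e-07) and -0.35 with SA (adjusted p = 0.0042). Phlda3, a target that inhibits the kinase AKT by competing for membrane lipids, was at 51.6, 58.9 and 50.4 TPM in control and 87.7, 92.4 and 83.6 TPM with DTPA. It was 63.5, 62.9 and 67.5 TPM with DFO and 52.9, 51 and 51.3 TPM with SA. Phlda3 rose 1.64-fold with DTPA (log2 0.70, adjusted p = 3.94e-07) and 1.21-fold with DFO (log2 0.27, adjusted p = 0.0118), while SA overlapped control. Median-of-ratios scaling removed the DFO call (adjusted p = 0.0517), as did the fit of only the 6 libraries compared (0.0528).

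Trp53inp1, a nuclear cofactor that promotes p53 phosphorylation and autophagy, rose with DTPA from 183 ± 3.79 to 228.6 ± 7.31 TPM (SD, n = 3) and fell with SA by 0.09 on the log2 scale. The SA call had a limma adjusted p of 0.0411. It was lost without any 1 of the 3 control or 3 SA libraries and without DTPA replicate 2 or DFO replicate 2, with adjusted p between 0.0519 and 0.13, and with no filter on low values (0.0726). A block on replicate number also removed the call. Apaf1, the scaffold of the caspase-activating apoptosome, rose 1.18-fold with DTPA. Ei24, an endoplasmic reticulum protein of autophagy and apoptosis, fell to 0.816 of control with DTPA. Aen, an exonuclease of apoptotic cells, averaged 27.1 TPM in control and 27.3 TPM with DTPA, and it rose with DFO to 31.4 ± 1.09 TPM (SD, n = 3; log2 0.20, limma adjusted p = 0.00664). Median-of-ratios scaling gave it a log2 difference of 0.138 with DTPA (adjusted p = 0.00803). Tnfrsf10b, the TRAIL receptor, was low, between 1.39 and 2.65 TPM, and its groups overlapped in all 3 comparisons with control.

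Pml, the organizer of nuclear bodies in which p53 is modified, fell with DTPA. It was at 29.6, 29.8 and 31.4 TPM in control, 12.2, 11.3 and 12.6 TPM with DTPA, 29.5, 27.3 and 28.6 TPM with DFO and 32.4, 33.7 and 33.6 TPM with SA. The DTPA mean was 0.397 of control (log2 -1.27, limma adjusted p = 3.12e-10). The SA libraries lay just above control (log2 0.13, adjusted p = 0.0569), a difference that passed in voom (adjusted p = 0.0344).

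Among the genes of stress, metabolism and autophagy, Zmat3 rose most. Zmat3, an RNA-binding zinc finger protein that regulates splicing, was at 20.3, 18.9 and 20.2 TPM in control, 38.8, 39.8 and 38.4 TPM with DTPA, 24.7, 22.9 and 21.7 TPM with DFO and 16.5, 18 and 16.5 TPM with SA. The 4 groups did not overlap and stood in the order SA, control, DFO, DTPA. The DTPA mean was 1.97-fold control (log2 0.94, limma adjusted p = 1.43e-08). The smaller DFO rise (log2 0.21, adjusted p = 0.0262) missed the threshold under median-of-ratios scaling (0.0709), in the fit of only the 6 libraries compared (0.0811), and without control replicate 2 (0.0924), control replicate 3 (0.0521), DFO replicate 1 (0.0881) or DFO replicate 2 (0.0637). The SA fall (log2 -0.21, adjusted p = 0.0145) missed it without control replicate 3 (0.0517), SA replicate 1 (0.0525) or SA replicate 3 (0.0543).

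Sesn1 (sestrin 1), which restrains mTORC1 when leucine is scarce, fell with both DTPA and SA. Its mean was 87.7 ± 1.34 TPM in control, 73 ± 1.83 TPM with DTPA, 87.3 ± 1.3 TPM with DFO and 80.6 TPM with SA (SD, n = 3). The log2 changes were -0.26 (limma adjusted p = 1.29e-06) and -0.12 (adjusted p = 0.00392). Dram2, a lysosomal membrane protein of autophagy, rose 1.07-fold with DTPA (log2 0.10, adjusted p = 0.0339). That call was lost without control replicate 2 (0.128), without DTPA replicate 1, 2 or 3 (0.0649, 0.0845 and 0.06), and in the fit of only the 6 libraries compared (0.0882). Tigar, a phosphatase that diverts glucose from glycolysis, ranged from 2.11 to 3.11 TPM over the 12 libraries and passed no test against control. With DTPA its log2 difference was 0.18 (adjusted p = 0.165), and it passed without DTPA replicate 1 (0.272, adjusted p = 0.0487) and under median-of-ratios scaling (0.278, adjusted p = 0.036).

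The repair genes split between the damage sensors of nucleotide excision repair. Xpc, which finds distorted DNA, rose with all 3 treatments, from 9 ± 0.424 TPM in control to 12.8 ± 0.214 with DTPA, 10.4 ± 0.265 with DFO and 11.6 TPM with SA (SD, n = 3). The log2 differences were 0.47 (limma adjusted p = 4.35e-06), 0.19 (adjusted p = 0.032) and 0.33 (adjusted p = 0.000618). The DFO call was lost without any 1 of control replicates 2 and 3 or the 3 DFO libraries (0.0579 to 0.104), under median-of-ratios scaling (0.11), in voom (0.0676) and in the fit of only the 6 libraries compared (0.105).

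Ddb2, the ultraviolet damage sensor that acts before Xpc, moved the other way with DTPA. It was at 6.35, 6.62 and 7.79 TPM in control, 2.36, 2.35 and 2.55 TPM with DTPA, 8.78, 7.95 and 8.42 TPM with DFO and 6.39, 8.91 and 7.49 TPM with SA. The DTPA mean was 0.35 of control (log2 -1.21, limma adjusted p = 8.81e-07). The exons of Ddb2 share 23.8% of their bases with Acp2 on the opposite strand, so Ddb2 values are uncertain if strand was not used in counting. Acp2 itself rose with DTPA, from 17.5 to 28.3 TPM. Polk, a polymerase that copies past damaged bases, rose 1.35-fold with DTPA and 1.14-fold with DFO (log2 0.42 and 0.18, adjusted p = 1.05e-06 and 0.0101). Rrm2b, the ribonucleotide reductase subunit induced by p53, stayed between 3.23 and 4.62 TPM, and its log2 difference with DTPA was 0.03 (95% interval -0.19 to 0.26).

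The treatments were also compared directly, and DTPA differed from DFO and SA in most tested genes of the genome as well as of the pathway. DTPA and DFO differed in 20 of the 25 tested genes (background: 65.9%), with 11 higher in DTPA and 9 lower (all genes: 19.6% and 46.4%). DTPA and SA also differed in 20 (background: 67.1%), with 12 higher and 8 lower (all genes: 20.1% and 47%), or 14 and 5 after median-of-ratios scaling (31.8% and 32.6%). Trp53 was 1.66-fold higher with DTPA than with SA (log2 0.73, limma adjusted p = 2.51e-10), Zmat3 2.29-fold (log2 1.15, adjusted p = 2.5e-09) and Eda2r 2.35-fold (log2 1.15, adjusted p = 3.19e-08). Between DTPA and DFO the same 3 genes differed by 0.45, 0.73 and 0.73 on the log2 scale. Aen was lower with DTPA than with DFO (log2 -0.19, adjusted p = 0.000738), but median-of-ratios scaling removed that call (log2 -0.010, adjusted p = 0.834).

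DFO and SA differed in 14 genes (background: 13.5%), 11 higher with DFO and 3 lower (all genes: 7.22% and 6.3%). The 11 were Trp53 (log2 0.28), Mdm2 (0.23), Ccng1 (0.38), Zmat3 (0.42), Phlda3 (0.32), Eda2r (0.42), Trp53inp1 (0.15), Aen (0.26), Ei24 (0.12), Polk (0.29) and Sesn1 (0.12). All 11 were without overlap between the DFO and SA libraries, and the share of all tested genes without overlap was not counted. Btg2 (-0.09), Ckap2 (-0.20) and Pml (-0.22) were lower with DFO than with SA. The Ei24 call stood near the threshold (limma adjusted p = 0.0498) and was lost in the robust fit (0.051), without control replicate 3 and without any 1 of the 9 treated libraries (0.0617 to 0.154). Ckap2 was lost without any 1 of the 3 DFO libraries (0.0519 to 0.0594) and without SA replicate 1 (0.0725) or SA replicate 2 (0.0517).

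**Figure D4:**
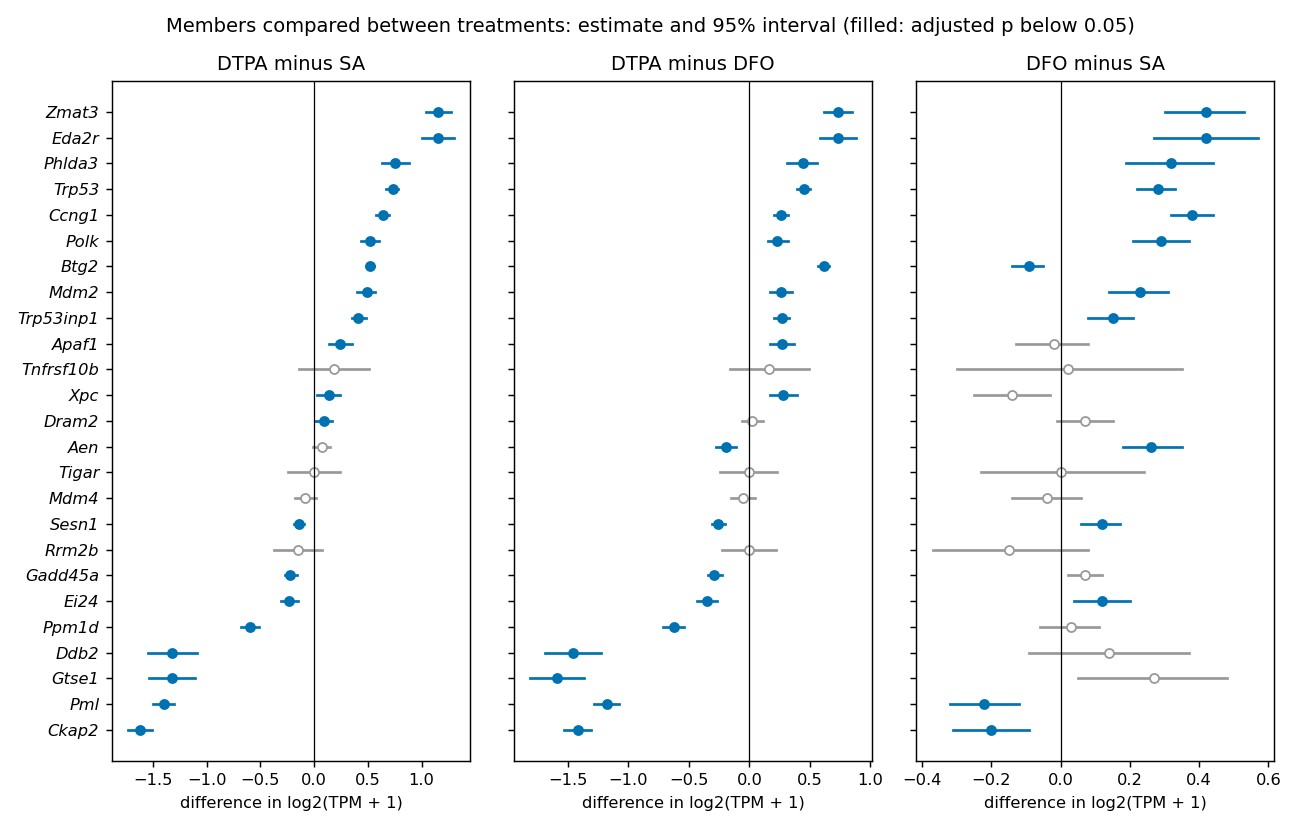
Log2 differences between treatments with 95% intervals (limma) for the 25 tested genes (filled where the adjusted p is below 0.05); panels show DTPA minus SA, DTPA minus DFO and DFO minus SA, and their x ranges differ. Zmat3 and Eda2r stand at 1.15 in DTPA minus SA, Ckap2 at -1.62.

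Among 25 further p53 targets that were not in the 32, 20 were tested, and with DTPA 11 rose, 6 fell and 3 did not pass, with a median log2 difference of 0.156. This compares with 23.5% higher, 42.1% lower and a median of -0.113 over all tested genes. Bbc3 (PUMA), a BH3-only trigger of apoptosis, was at 94.3, 100.2 and 94.2 TPM in control and at 194.8, 192.2 and 194.9 TPM with DTPA, 2.02-fold higher (log2 1.00, limma adjusted p = 2.81e-10). It also rose with DFO (log2 0.22, adjusted p = 0.00266) and SA (log2 0.19, adjusted p = 0.00267). Bax, the pore-forming effector of mitochondrial apoptosis, averaged 408.2 ± 19 TPM (SD, n = 3) in control. It rose with DTPA (log2 0.45, adjusted p = 3e-07) and DFO (log2 0.12, adjusted p = 0.0467) and fell with SA (log2 -0.12, adjusted p = 0.0255), although SA and control libraries overlapped. The DFO rise of Bax was gone after median-of-ratios scaling (adjusted p = 0.323). Pmaip1 (NOXA) was listed at 0 in all libraries. The 11 rises and the median of 0.156 include Ptprv, which passed the filter only through its DTPA libraries and so had to differ.

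Cdkn1a, which encodes the cell-cycle inhibitor p21, was at 199.8, 197.6 and 190.6 TPM in control, 248.3, 250.7 and 241.2 TPM with DTPA, 189.3, 200.4 and 194.8 TPM with DFO and 153.4, 146.3 and 142.8 TPM with SA. DFO and control overlapped, DTPA lay above both and SA below both. The log2 differences were 0.33 with DTPA (limma adjusted p = 1.98e-06), -0.01 with DFO (95% interval -0.08 to 0.06, adjusted p = 0.893) and -0.41 with SA (adjusted p = 5.87e-06). Its promoter window holds 2 decamers. The one nearer to the RefSeq start of that window lies in chr17:29090903-29090962 on the plus strand, 51 bases before that start, with the decamer in capitals. Which start of Cdkn1a these cells use was not examined.
Cdkn1a: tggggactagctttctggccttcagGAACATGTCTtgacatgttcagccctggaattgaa
Sesn2 (sestrin 2), a relative of Sesn1, rose with SA (log2 0.59, adjusted p = 6.06e-08) and DFO (log2 0.20, adjusted p = 0.000473) and fell with DTPA (log2 -0.17, adjusted p = 5.36e-05). After median-of-ratios scaling Sesn2 no longer passed with DTPA (log2 -0.041, adjusted p = 0.229). Slc19a2, a thiamine transporter, fell with SA by 0.46, and Pcna, the sliding clamp of DNA replication, fell with all 3 treatments (log2 -1.35 with DTPA, -0.21 with DFO and -0.36 with SA). With DFO 4 of the 20 rose and 1 fell (median 0.084; all genes 8.39% and 2.28%), and with SA 4 rose and 7 fell (median -0.043; all genes 15.4% and 6.75%). Under median-of-ratios scaling the counts were 13 and 2 with DTPA (all genes 32.2% and 32.4%) and 2 and 7 with SA (9.43% and 13.6%).

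**Figure D5:**
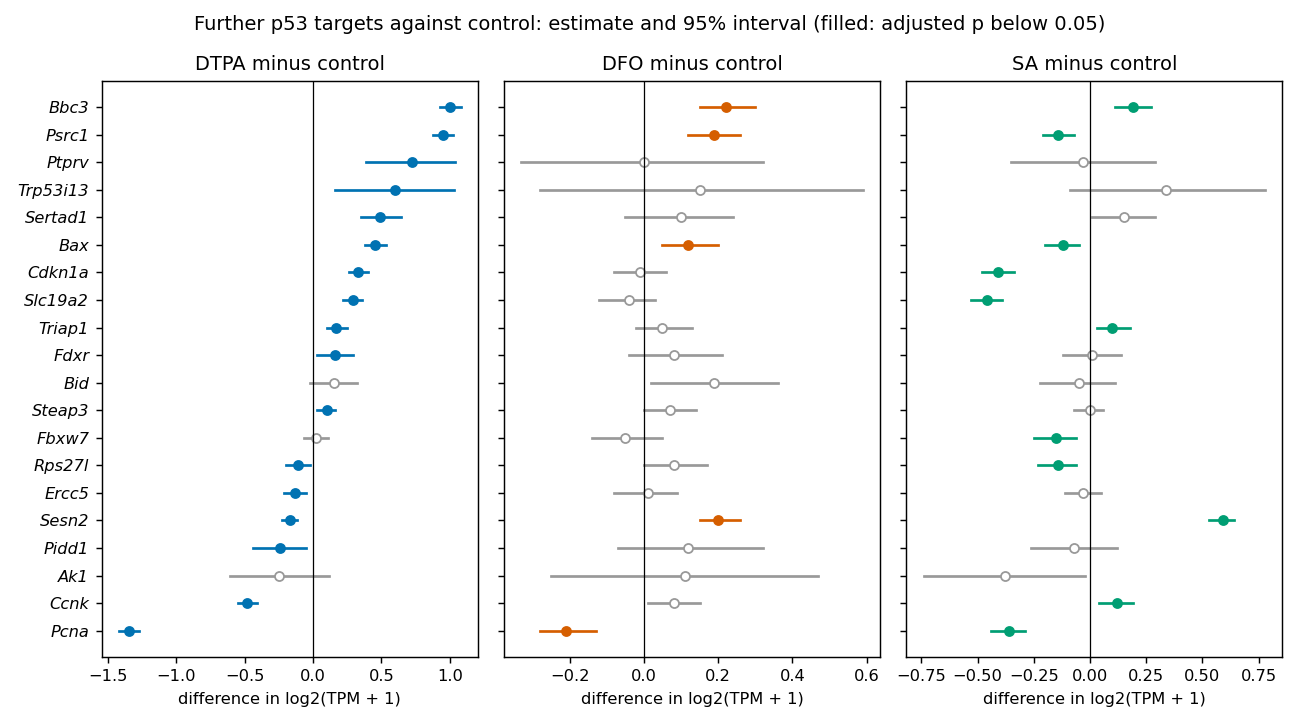
Log2 difference from control with 95% intervals (limma) for the 20 tested further p53 targets under DTPA, DFO and SA; x ranges differ between panels. Ptprv passed the filter only through its DTPA libraries, so its DTPA estimate is drawn but is no independent result. With DTPA, Bbc3 is highest at 1.00 and Pcna lowest at -1.35; with SA, Sesn2 is highest at 0.59.

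Upstream of p53, 24 kinases and regulators were followed and 23 were tested. With DTPA 5 rose and 10 fell (median -0.058). Those shares, 21.7% and 43.5%, were near the 23.5% and 42.1% of all tested genes. Under median-of-ratios scaling 10 rose and 8 fell (43.5% and 34.8%, against 32.2% and 32.4%). With DFO 2 rose and 21 did not pass (median 0.056). The rises, 8.7%, were near the 8.39% of all tested genes, and 0 fell against 2.28%. Under that scaling 2 rose and 2 fell with DFO (8.7% each, against 3.55% and 5.42%). With SA 5 rose and 4 fell (21.7% and 17.4%, against 15.4% and 6.75%), with a median of 0.048. Median-of-ratios scaling gave 3 rises and 5 falls with SA (13% and 21.7%, against 9.43% and 13.6%). Rpl5 and Rpl11, ribosomal proteins that bind MDM2 when ribosome assembly fails, rose with all 3 treatments. Rpl5 rose by 0.62, 0.15 and 0.30 and Rpl11 by 0.56, 0.17 and 0.28 with DTPA, DFO and SA, on the log2 scale. Both have many processed pseudogenes, and how reads were divided among the copies is uncertain. Atm, the kinase activated by DNA breaks, was between 4.7 and 6.8 TPM and passed no test. Chek1, the checkpoint kinase of replication stress, fell with DTPA from 2.83, 3.06 and 3.58 TPM to 0.636, 0.72 and 0.537 TPM (log2 -1.35, limma adjusted p = 3.5e-07). Chek1 passed the filter only through the other groups, so that fall is no independent result. Prmt5, an arginine methyltransferase of p53, fell with DTPA (log2 -0.55) and rose with SA (log2 0.28). Cdkn2a and the p53 family members Trp63 and Trp73 were listed at 0 throughout.

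The 20 cell-cycle genes repressed through p21, E2F4 and DREAM, or encoding parts of that system, all fell with DTPA, except that E2f4 (-0.15) did not pass once scaled by median of ratios (-0.022). The median log2 difference was -3.170, and 42.1% of all tested genes fell. Birc5 (survivin, -4.17) and Cdc25c (a mitotic phosphatase, -3.80) fell most. Genes such as Cdk1, Cdc25c, Foxm1 and Mybl2 were under 1 TPM in DTPA libraries only, so they passed the filter through the other groups. The count, the median and the largest falls given for DTPA include such genes. With DFO 12 fell (60%, against 2.28% of all tested genes) and 8 did not pass, with a median of -0.255 against 0.045. With SA 4 fell and 1 rose (20% and 5%, against 6.75% and 15.4%), with a median of -0.060 against 0.047. The summed level was 1380 to 1398 TPM with DFO and 1506 to 1587 TPM with SA. With DFO the largest falls were Cdk1, the mitotic kinase (-0.37), and Plk1, a kinase of spindle assembly (-0.32). With SA they were Brca1, a DNA repair gene (-0.30), and Cdc25c (-0.23). The letters TTTGAA, the core of the cell-cycle homology element, were found on either strand in 8 of the 13 of these genes with a promoter window (61.5%), against 20.2% of all genes with one. The letters CCAAT were in 11 of the 13 (84.6%), against 41.1%. Ckap2 has TTTGAA 101 bases before its start, as well as a p53 decamer farther upstream. Its TTTGAA is shown in capitals within chr8:22185890-22185945 (minus strand).
Ckap2: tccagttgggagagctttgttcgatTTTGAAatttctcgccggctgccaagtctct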

How the data were processed

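Stranded mRNA libraries were sequenced, per the labels' protocols. The submitters' processing notes name HISAT2 2.1.0, featureCounts, edgeR, Trimmomatic 0.33 and FastQC, with build mm10, and neither settings, annotation release nor use of strand. Each library has 1 table of 55487 rows, in which the authors deposited TPM by gene symbol. Of 114 symbols that occur more than once, the copy with the highest mean was kept. Positions and exon lengths came from GENCODE M21.

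The model was limma 3.58.1 (R 4.3.3) on log2(TPM + 1), with a mean for each of the 4 groups of 3 and a mean-variance trend; genes needed 1 TPM in 3 libraries. Reads recovered from TPM and exon length came out whole within 0.1 read for 98.7% to 98.9% of values up to 200 reads. No 2 libraries held identical values, and replicates differed beyond sampling noise (chi-square per degree of freedom 2.04 to 5.61). Members and lists were chosen with earlier results of these data known. Every tested member was described, with all libraries for those changed at least 1.5-fold and for Trp53, Mdm2 and Mdm4. From the other lists the text names Cdkn1a, Bbc3, Bax, Pmaip1, Atm and Chek1 and, per list and treatment, up to 2 called genes of largest change. Genes named outside that rule (Prmt5, E2f4, Cdkn2a, Trp63, Trp73, Foxm1, Mybl2, Psrc1, Ptprv, Sesn3, Trp53-ps, Acp2 and E230016M11Rik) were chosen after their values were seen. Some genes of these lists are not reported here by name. Tables and plots used Python 3.11.15, pandas 2.3.3, numpy 2.4.6, scipy 1.17.1 and matplotlib 3.10.9.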

Additional observations from a re-analysis of the deposited data

How the results depend on the processing

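Other settings tried were a pseudocount of 0.1 or 5, the low-value filter dropped or raised to 5 TPM, scaling by median of ratios or trimmed mean, a robust fit, fitting only the 6 libraries compared, a block on replicate number, leaving out single libraries, and voom on recovered reads (chosen after seeing the data). The 6 rises with DFO became 3 under both scalings and in the 6-library fit, and the 7 falls with SA became 12 under both scalings. Leaving out 1 library gave 11 to 12 rises and 8 to 8 falls with DTPA, 4 to 7 rises and 0 to 0 falls with DFO, and 2 to 4 rises and 5 to 8 falls with SA. The 4 came without DTPA replicate 3. Genes called between treatments then numbered 20 to 20 for DTPA against DFO, 18 to 20 for DTPA against SA and 12 to 14 for DFO against SA. No pair of same-numbered libraries correlated above 0.1 (18 pairs, -0.0433 to 0.0537). With the replicate block the counts were 12 and 8 with DTPA, 6 and 0 with DFO, and 2 and 6 with SA (Trp53inp1 was lost, adjusted p = 0.0698), and 20, 19 and 13 genes between treatments. Of 1641 values of single genes against control under 22 settings, 37 lost and 32 gained a call. Where the main or the other value was called, 0 changed sign, and 39 changed sign where neither was called. Genes under about 3 TPM, such as Tnfrsf10b and Tigar, rest on as few as 53 and 56 reads in a library.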

Other observations

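Psrc1, a spindle protein listed among the further targets, went in mean from 44.7 ± 1.59 TPM in control to 87.1 ± 2.05 TPM with DTPA (SD, n = 3; limma log2 0.95, adjusted p = 2.13e-10). It rose with DFO (log2 0.19) and fell with SA (log2 -0.14), and was chosen after its values were seen. Ptprv, a phosphatase gene, was at most 0.759 TPM in control, DFO and SA libraries and at 1.47, 1.8 and 1.44 TPM with DTPA. It passed the filter only through the DTPA group, so no test of it is given. The sestrins did not move as 1 group: Sesn1 fell with SA (log2 -0.12), Sesn2 rose (log2 0.59), and Sesn3 stayed at or below 0.0601 TPM. Trp53-ps rose with DTPA (log2 0.65, limma adjusted p = 0.00104), with library values of 14.9, 12.4 and 13.4 TPM against 7.48, 8.48 and 8.99 TPM in control.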
